A study of Homo sapiens with 3 samples.

Results

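The RNA polymerase subunit genes of the human genome were examined for MAX and BMAL1 binding in MDA-MB-231 cells, an established triple-negative breast cancer cell line. The set comprised the protein-coding genes whose symbol begins with POLR1, POLR2 or POLR3, which gave 33 of 20090 protein-coding gene symbols, on 19 chromosomes of hg19. Chromatin of adherent cells, for which the labels name no treatment or genetic change, was immunoprecipitated with an antibody against BMAL1 or against MAX, and both arms shared the same input chromatin as control. Each antibody was represented by 1 library, as was the input, so no value below has a replicate check and the differences describe these libraries. The MAX list held 13650 peaks from 11545865 tags and the BMAL1 list 756 peaks from 13866783 tags, each called against 29308882 input tags. A gene was counted as bound when the summit of a listed peak lay within 1 kb of any of its annotated transcription start sites (TSSs). The pileup is the number of extended fragments that cover the summit, and fold enrichment is this number divided by the background that the peak caller took from the input around it.

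The nuclear RNA polymerases divide transcription between them. Pol I makes the large ribosomal RNA precursor in the nucleolus, Pol II makes messenger RNAs and many small nuclear RNAs, and Pol III makes transfer RNAs, the 5S ribosomal RNA and other short RNAs. Each enzyme has its own pair of large catalytic subunits and its own stalk and accessory subunits, while a few small subunits are built into all of them and others are shared by Pol I and Pol III. MAX is the obligate partner of MYC and of the MXD repressors, BMAL1 pairs with CLOCK, and both kinds of dimer bind the E-box CACGTG, a palindrome that reads the same on both strands.

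The sequences below are E-boxes found within 100 bp of a MAX summit at subunit genes. They are shown because they are the motif that both factors bind, close to the MAX signal, and the hexamer is in capitals with 12 bases on each side.
POLR2I: gcggggagccagCACGTGtgcgcagctccg
POLR3E: cccgctccccccCACGTGtccgccggagtt
POLR1G: cccctttggatcCACGTGgtctgcaacctg
POLR3G: gtggtcgaagtgCACGTGggtggccacggc
POLR1B: ctgacgcgggcgCACGTGgagtccttcaac
POLR3K: cttctcctgcaaCACGTGcccctacgtgca
POLR3A: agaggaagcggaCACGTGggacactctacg
Each is read 5′ to 3′ on the strand of the named gene, from the hg19 reference, and the positions are those of the printed sequence, while distances are from the hexamer to the summit. The POLR2I sequence lies at chr19:36605860-36605889 on the minus strand, in the UTR of POLR2I and an intron of TBCB, 4 bp from the MAX summit. The POLR3E sequence lies at chr16:22308717-22308746 on the plus strand, in the POLR3E UTR, 14 bp from the summit. The POLR1G sequence is at chr19:45909878-45909907 on the plus strand, with the hexamer over the summit itself, just upstream of the gene. The POLR3G sequence at chr5:89769846-89769875 on the plus strand is in a POLR3G intron and in coding sequence of MBLAC2, 74 bp from the summit. The POLR1B sequence at chr2:113300183-113300212 on the plus strand and the POLR3K sequence at chr16:103492-103521 on the minus strand are in coding sequence of these genes, 80 and 14 bp from their summits. The POLR3A sequence at chr10:79789291-79789320 on the minus strand is upstream of the gene, 10 bp from its summit.

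A different hexamer was found near the summit at POLR1C, POLR1E and POLR2B, where CACGTG was absent from the peak. POLR1E and POLR2B are shown because CACGCG, searched on both strands, is a variant E-box for the same family of factors. In the POLR2B sequence it reads CGCGTG, its reverse complement.
POLR1E: ggggggcggggaCACGCGgctcgcgcgctg
POLR2B: ccgagacgaaagCGCGTGggtacttgggag
The POLR1E sequence is at chr9:37485890-37485919 and the POLR2B sequence at chr4:57843822-57843851, both on the plus strand and outside protein-coding genes, with the hexamers 26 and 24 bp from their MAX summits. Further copies of the hexamer, not shown, lay 20 bp from the POLR2B summit and 76 and 100 bp from the POLR1E summit. The share for CACGCG on its own over all MAX promoter peaks is not given here. Counts that join CACGTG with CACGCG or with CATGTG found a motif in 13 of 25 subunit MAX peaks (52.0%). The share of all MAX promoter peaks was 42.8%, and both counts used the 200 bp centred on the summit. The variant sequences are therefore shown as occurrences only.

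MAX peaks were found at 21 of the 33 subunit genes (63.6%), against 36.4% of all protein-coding genes. The genes bound differed by polymerase. Among the subunits of Pol I, of Pol III, or of both but not Pol II, 16 of 18 had a MAX peak (88.9%), while 5 of the 15 POLR2 genes had one (33.3%). These 15 include POLR2M, a Pol II associated protein, and the POLR2J copies POLR2J2 and POLR2J3, and without those 3 genes the count was 5 of 12 (41.7%), so the share lay on either side of that of all genes. MAX was present at 5 of 6 subunits found only in Pol I, at both subunits shared by Pol I and Pol III, at 9 of 10 found only in Pol III, at 2 of 5 shared by all 3 enzymes, and at 3 of 10 specific to Pol II. Without POLR2M, POLR2J2 and POLR2J3 the last count was 3 of 7. With shared subunits counted in each enzyme, 9 of 13 genes for Pol I and 13 of 17 for Pol III had a MAX peak, where the latter includes the alternative subunits POLR3G and POLR3GL.

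MAX peaks are frequent at CpG-rich promoters, so the counts were also read against genes of that kind. A promoter was called CpG-rich at a GC content of at least 50% and a ratio of observed to expected CpG of at least 0.6 in the 500 bp on either side of the canonical TSS. Of the 33 subunit genes 31 had such a promoter, against 12902 of all 20090 genes. A MAX peak was at 19 of these 31 (61.3%), against 50.0% of all CpG-rich genes. All 18 genes for subunits of Pol I or Pol III that are not in Pol II were CpG-rich, and 16 of them had a MAX peak. Of the 15 POLR2 genes 13 were CpG-rich, and among these 13 only POLR2A, POLR2H and POLR2I had a MAX peak. All 12 subunit genes without a MAX peak were CpG-rich, against 6457 of all 12782 genes without one. The bound genes POLR2B and POLR2K were not. Subunit genes also had more annotated TSSs, with a median of 8 against 5 in all genes and 7 in CpG-rich genes, and more TSSs give a gene more chances to lie near a summit. The part of composition and TSS number in the counts was not tested.

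**Figure D1:**
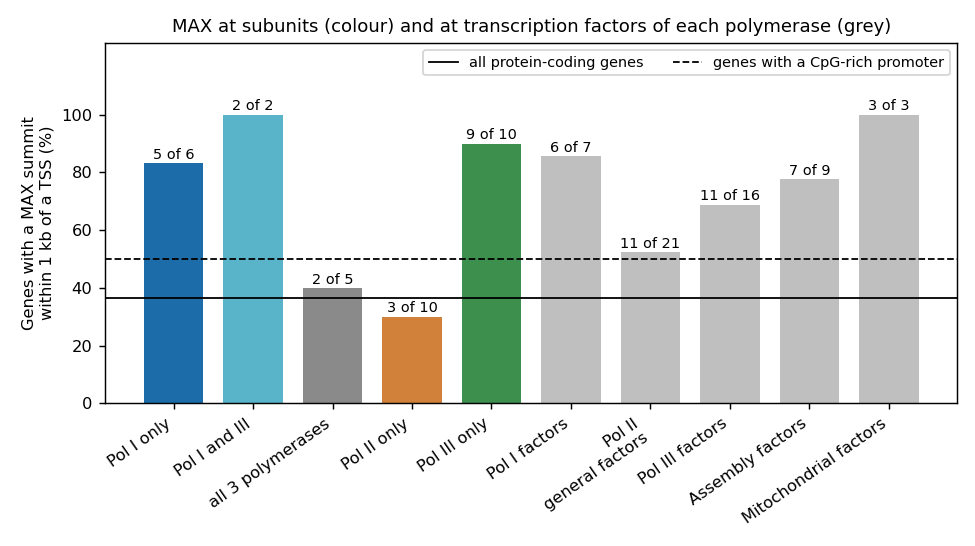
Percent of genes with a MAX summit within 1 kb of a TSS, for subunits by polymerase (coloured bars) and for transcription, assembly and mitochondrial factors (grey bars), with the number of genes above each bar. The bars for Pol I only (5 of 6) and Pol III only (9 of 10) stand above the lines for all protein-coding genes (36.4%) and CpG-rich genes (50.0%). The bar for Pol II only (3 of 10) stands below both. Without POLR2M, POLR2J2 and POLR2J3 it would be 3 of 7, between the 2 lines. The bar for Pol II general factors also counts TBP and the elongation factors TCEA1, SUPT4H1 and SUPT5H.

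Within the bound genes the level of MAX enrichment covered a wide range and did not separate the polymerases. The strongest peak of each bound gene had a median fold enrichment of 13.2 (range 4.15 to 34.09, 21 genes), against 10.8 over all genes with a MAX peak. Single subunit genes lay on both sides of 10.8, and subunits are not replicates, so no interval is given for the median. The medians were 13.4 for Pol I only, 10.9 for Pol I and Pol III, 8.50 for all 3 enzymes, 15.0 for Pol II only and 13.2 for Pol III only, with ranges that overlapped. The lowest value was 4.15 at POLR3B and the highest 34.09 at POLR2I. Intervals for single peaks are exact Poisson 95% intervals on the pileup and cover counting error only.

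**Figure D2:**
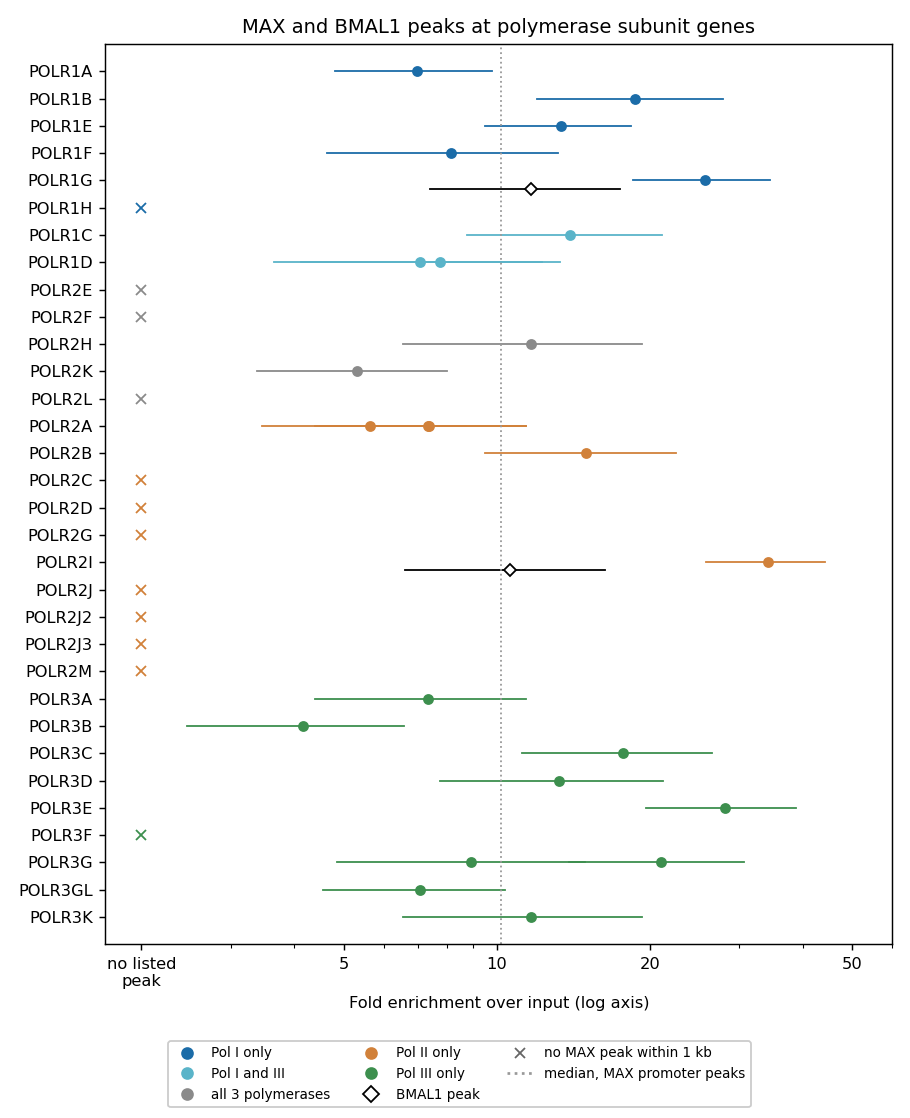
Fold enrichment over input (log axis) of every listed MAX peak (filled circles) and BMAL1 peak (open diamonds) at 32 of the 33 subunit genes, with exact Poisson 95% intervals for counting error. Crosses mark the 12 genes without a MAX peak, 7 of which are specific to Pol II, and the dotted line is the median of all MAX promoter peaks (10.2).

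Of the subunits found only in Pol I, 5 of 6 had a MAX peak, at levels that spanned much of the range of the set. POLR1A, the largest catalytic subunit, had a MAX peak with a pileup of 33 fragments (22.7 to 46.3) and a fold enrichment of 6.98 (4.80 to 9.80), at chr2:86332557-86333552. Its summit was 2 bp upstream of the nearest POLR1A TSS and 66 bp from a TSS of PTCD3, a mitochondrial translation gene on the other strand. POLR1B, the second catalytic subunit, had fewer fragments (24, 15.4 to 35.7) but a higher fold enrichment of 18.71 (12 to 27.8), at chr2:113299792-113300397. The order of these genes by fragments and by fold therefore differed, because the local background was 4.73 at POLR1A and 1.28 at POLR1B.

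POLR1G, an accessory subunit that forms a dimer with POLR1E, carried the strongest MAX peak of the Pol I genes. The peak at chr19:45908263-45910488 was 2226 bp long, with 43 fragments (31.1 to 57.9) at a summit 9 bp upstream of the TSS, and its fold enrichment of 25.62 (18.5 to 34.5) exceeded that of 98.8% of the MAX list. The summit was also 286 bp from a TSS of PPP1R13L on the other strand. POLR1E had 38 fragments and a fold enrichment of 13.4 (9.48 to 18.4), 66 bp upstream of its TSS, at chr9:37485558-37486120. The fold intervals of POLR1G and POLR1E did not overlap, but their fragment intervals did (26.9 to 52.2 at POLR1E), over backgrounds of 1.68 and 2.84. POLR1F, a stalk subunit that contacts the initiation factor RRN3, had a peak of 16 fragments and a fold enrichment of 8.12 (4.64 to 13.2), 34 bp upstream of its TSS. POLR1H, the subunit for RNA cleavage, was the only one of these 6 genes without a MAX peak, and its nearest MAX summit was 5701 bp from a TSS, at PPP1R11.

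The 100 bases upstream of the POLR1G TSS, at chr19:45909802-45909901 on the plus strand, contain the E-box under the MAX summit in capitals and end at the base before the TSS.
POLR1G upstream: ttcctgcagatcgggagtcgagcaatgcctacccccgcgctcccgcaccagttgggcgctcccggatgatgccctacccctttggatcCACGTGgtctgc

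POLR1C and POLR1D form the dimer on which both Pol I and Pol III are assembled, and both genes had MAX. POLR1C had 22 fragments and a fold enrichment of 13.96 (8.75 to 21.1), 63 bp downstream of a TSS, and shared its peak with YIPF3 on the opposite strand. POLR1D had a pair of weak peaks with fold enrichments of 7.05 (3.64 to 12.3) and 7.75 (4.13 to 13.3), resting on 12 and 13 fragments, at 903 bp upstream and 338 bp downstream of the canonical TSS. Their intervals overlapped over nearly their whole length. The upstream summit was 460 bp from a TSS of LNX2 on the other strand.

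Of the subunits common to the 3 enzymes, POLR2H and POLR2K were bound. The POLR2H peak had 15 fragments and a fold enrichment of 11.69 (6.54 to 19.3), and its summit lay 15 bp upstream of an alternative TSS but 1678 bp downstream of the canonical one. The POLR2K peak had 23 fragments and a fold enrichment of 5.31 (3.37 to 7.97) over a background of 4.33, and only 2.20% of the MAX list was lower. Neither had an E-box at its summit. POLR2E, POLR2F and POLR2L had no MAX summit within 1 kb, and the nearest ones were 7376, 5876 and 1541 bp from a TSS.

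The only Pol II subunit genes with MAX were POLR2A, POLR2B and POLR2I, beside the shared POLR2H and POLR2K. POLR2A encodes the largest subunit, which carries the C-terminal repeat domain, and had 3 separate peaks with fold enrichments of 7.31 (4.40 to 11.4), 7.36 (4.5 to 11.4) and 5.64 (3.45 to 8.71). Their summits were 983 bp upstream, 159 bp upstream and 574 bp downstream of its canonical TSS. The central one was 56 bp from a TSS of ZBTB4, a zinc finger repressor gene on the other strand. The MAX signal at POLR2A was thus spread over several sites of low and closely similar enrichment, with overlapping intervals.

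POLR2B, the second catalytic subunit, had 23 fragments and a fold enrichment of 14.97 (9.49 to 22.5). Its summit was 76 bp upstream of a POLR2B TSS, 1250 bp upstream of the canonical one and 40 bp from a TSS of NOA1, a mitochondrial GTPase gene. POLR2I, a small subunit that acts in start site choice and transcript fidelity, had the highest MAX fold enrichment of all 33 genes. Its peak at chr19:36605367-36606559 had 56 fragments (42.3 to 72.7), a fold enrichment of 34.09 (25.8 to 44.3) and a −log10 p-value of 65.02, and 99.8% of the MAX list was lower. The promoter is shared with TBCB, a tubulin folding cofactor gene whose nearest TSS was 471 bp from the summit on the other strand.

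Most Pol II subunits had no MAX peak nearby. The nearest MAX summits lay 178274 bp from POLR2C, 46935 bp from POLR2D, 8910 bp from POLR2G and 220589 bp from POLR2M. POLR2C belongs to the assembly dimer of Pol II with POLR2J, POLR2D and POLR2G form its stalk, and POLR2M is a Pol II associated protein. POLR2J, POLR2J2 and POLR2J3 are near-identical copies on chromosome 7, with nearest MAX summits 14062, 206769 and 101769 bp away. Of the 51-bp words in the 500 bp on either side of their TSSs, 60.9% for POLR2J, 74.8% for POLR2J2 and 72.0% for POLR2J3 also occur at another copy. A tag from such a word has no unique place, so the absence of a peak at these copies is uncertain.

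Pol III subunits had MAX at 9 of 10 genes. POLR3A and POLR3B, the catalytic pair, had low values. POLR3A had 19 fragments and a fold enrichment of 7.31 (4.40 to 11.4). POLR3B had 18 fragments and a fold enrichment of 4.15 (2.46 to 6.56) over a background of 4.34, and only 0.286% of the MAX list was lower. Its −log10 p-value of 6.76 misses the cutoff of 1e-08 given in the study's methods. At that cutoff 8 of 10 Pol III specific genes had a MAX peak, against 34.1% of all genes. The weakest MAX peak of the set was thus at a core subunit.

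POLR3D and POLR3E form a dimer that acts in initiation and termination. POLR3E had the highest fold enrichment of the Pol III genes, 28.06 (19.7 to 38.8), with 36 fragments (25.2 to 49.8) at chr16:22308459-22309217 and a summit 15 bp downstream of its canonical TSS. POLR3D had 17 fragments and a fold enrichment of 13.25 (7.72 to 21.2). The POLR3E interval overlapped those of POLR2I and POLR1G, so the order of these 3 strongest genes is not resolved by the counts.

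POLR3C, POLR3F and either POLR3G or its paralogue POLR3GL form the initiation subcomplex of Pol III. POLR3C had 23 fragments and a fold enrichment of 17.69 (11.2 to 26.5), 3 bp downstream of a TSS and 43 bp from a TSS of RNF115 on the other strand. POLR3G had a strong peak 894 bp upstream of its canonical TSS, with 27 fragments and a fold enrichment of 21.05 (13.9 to 30.6), and a weaker peak 279 bp upstream with a fold enrichment of 8.88 (4.85 to 14.9). The strong peak was 89 bp upstream of an alternative POLR3G TSS. The nearest TSSs of MBLAC2, on the other strand, were 408 bp from the strong summit and 186 bp from the weaker one. POLR3GL had 25 fragments and a fold enrichment of 7.05 (4.56 to 10.4) over a background of 3.55, at a summit 6 bp from a TSS of ANKRD34A on the other strand. The interval of POLR3GL lay below that of the strong POLR3G peak, although the fragment numbers were close. POLR3F had no MAX peak, and its nearest MAX summit was 39482 bp away, at SEC23B.

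POLR3K, the small subunit for RNA cleavage and the counterpart of POLR1H, had 15 fragments and a fold enrichment of 11.69 (6.54 to 19.3), 88 bp downstream of its TSS and 308 bp from a TSS of the spliceosome gene SNRNP25. The cleavage subunits of Pol I and Pol III thus differed in whether a MAX peak was listed.

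**Figure D3:**
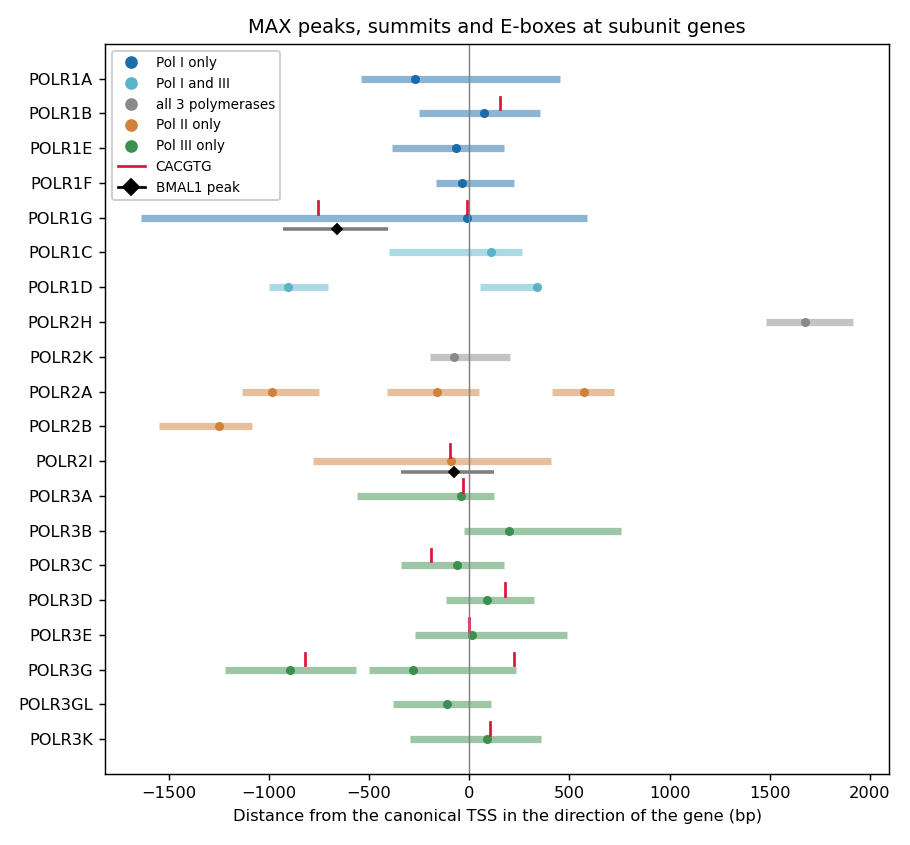
MAX peaks (bars) and summits (circles) at 20 of the 21 bound subunit genes, in bp from the canonical TSS in the direction of each gene, with CACGTG motifs inside peaks (red ticks) and BMAL1 peaks (grey bars with diamonds). Most summits lie close to the TSS, and POLR2H and POLR2B lie farther from the canonical TSS, at 1678 bp downstream and 1250 bp upstream.

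The 25 distinct MAX peaks of the set lay near start sites. In 19 of 25 the summit was within 100 bp and in 23 within 300 bp of the nearest TSS of the subunit gene, with a median of 64.0 bp and a maximum of 983 bp, and 18 summits were upstream. To the nearest TSS of any protein-coding gene the median distance was 56.0 bp, against 112 bp over all 7285 MAX promoter peaks. The median fold enrichment was 11.7 against 10.2, the median pileup 20.0 against 18 fragments and the median length 562 against 481 bp. Just inside the 1 kb limit was the outer POLR2A peak at 983 bp, and the next gene outside it was POLR2L, with a MAX peak of fold enrichment 9.31 at 1541 bp.

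Divergent promoters were frequent among the bound genes. TSSs on both strands lay within 1 kb of the summit in 14 of 25 peaks (56.0%), against 14.7% of all MAX promoter peaks. All 5 peaks at POLR2A, POLR2B and POLR2I were of this kind, as were 5 of 10 peaks at Pol III genes and 2 of 5 at Pol I genes. At these peaks the signal cannot be assigned to the subunit gene rather than to its neighbour.

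The strongest peaks held an E-box. CACGTG was found in the 200 bp centred on the summit in 9 of 25 MAX peaks (36%), against 20.5% of all MAX promoter peaks. By polymerase the motif was at 6 of 10 Pol III peaks, 2 of 5 Pol I peaks, 1 of 5 Pol II peaks, and none of the 5 peaks at shared subunits. Peaks with the motif had a median fold enrichment of 18.7 (range 7.31 to 34.09) and those without it 7.55 (4.15 to 17.69), so that the ranges overlapped. The 5 highest peaks, at POLR2I, POLR3E, POLR1G, POLR3G and POLR1B, all had it, though at POLR3G and POLR1B it lay 74 and 80 bp from the summit. In all MAX promoter peaks the medians were 12.5 with the motif and 9.76 without it. The median pileup of the subunit peaks was 24.0 fragments with and 20.0 without the motif, a smaller contrast than in fold enrichment, and 6 of the 9 peaks with the motif had a background at the genome-wide floor of 1.28.

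**Figure D4:**
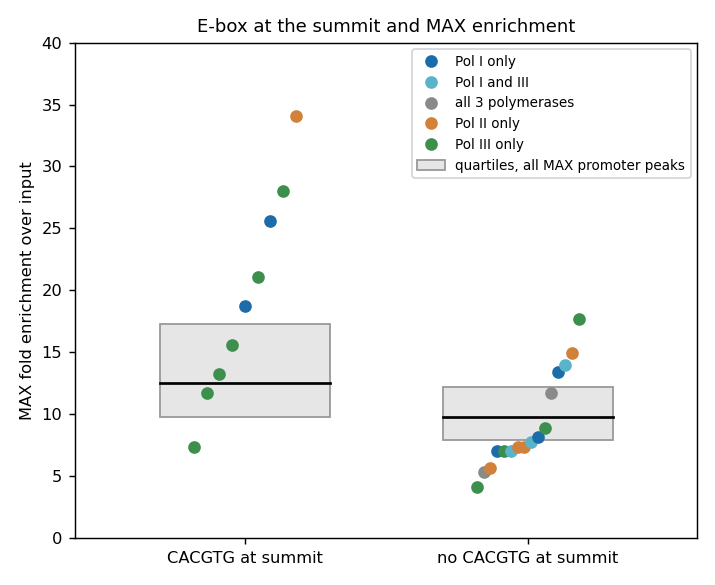
MAX fold enrichment over input of the 25 peaks at subunit genes, with or without CACGTG in the 200 bp at the summit, over the quartiles and median (box and line) of all MAX promoter peaks. The 9 peaks with the motif reach from 7.31 to 34.09 and the 16 without it from 4.15 to 17.69.

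The sequence around start sites was also searched without regard to peaks. CACGTG occurred within 1 kb of the canonical TSS in 15 of 33 subunit genes (45.5%), against 29.2% of all protein-coding genes. It was present in 12 of the 18 genes for subunits of Pol I or Pol III that are not in Pol II (66.7%) and in 3 of the 15 POLR2 genes (20.0%). Among Pol III specific genes 8 of 10 had it, and among Pol II specific genes 1 of 10, which was POLR2I. The POLR2 genes here include POLR2M, POLR2J2 and POLR2J3, none of which had it. Without them the motif was in 3 of 12 POLR2 genes and in 1 of 7 Pol II specific genes. Of the 15 genes with the motif, 14 had a MAX peak (93.3%, against 49.0% of all genes with the motif). In 4 of these 14, POLR1D, POLR1E, POLR2H and POLR3GL, no CACGTG lay inside a MAX peak, so motif and peak were apart. The gene with the motif and no MAX peak was POLR2F, with a CACGTG centred 427.5 bp from its TSS. Of the 18 genes without the motif, 7 had a MAX peak (38.9%, against 31.8% of all genes without it). These were POLR1A, POLR1F, POLR1C, POLR2K, POLR2A, POLR2B and POLR3B. In a 300 bp window at the canonical TSS, CACGTG was in 5 of 33 subunit genes (15.2%), against 8.76% of all genes. There it was in 3 of 10 Pol III specific and 1 of 10 Pol II specific genes. For subunits of Pol I or Pol III that are not in Pol II it was in 4 of 18, and for POLR2 genes in 1 of 15. The motif counts thus depend on the window, and their shares were not matched for CpG-rich promoters.

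**Figure D5:**
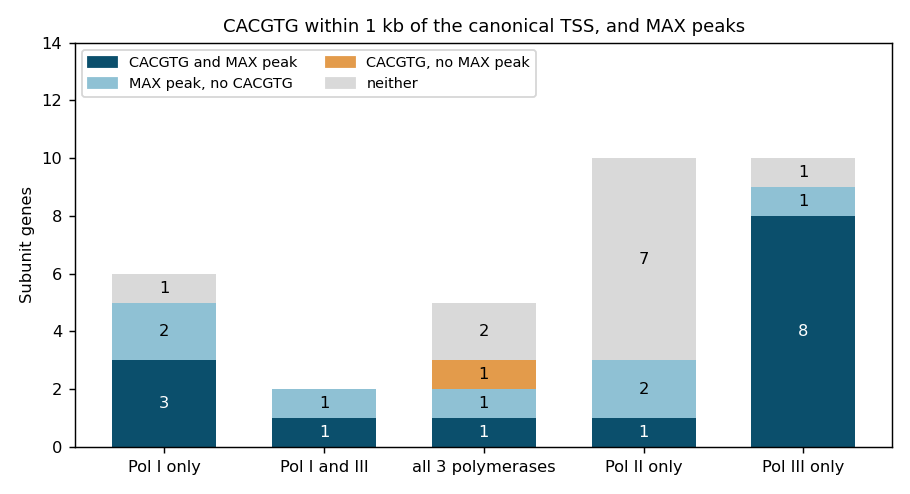
Number of subunit genes with CACGTG within 1 kb of the canonical TSS and with a MAX peak, by polymerase. Both were present at 8 of 10 Pol III specific genes and 3 of 6 Pol I specific genes, and neither at 7 of 10 Pol II specific genes. These 7 include POLR2M, POLR2J2 and POLR2J3.

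BMAL1 peaks were few in this gene set, and rare among all genes. They were listed at 2 of 33 genes (6.06%), against 1.85% of all protein-coding genes and 2.53% of CpG-rich genes. Both, POLR1G and POLR2I, also had the MAX peaks of highest enrichment in their class. The other 19 genes with a MAX peak had no BMAL1 peak. Most genes with MAX lacked BMAL1, since 355 of all 7308 protein-coding genes with a MAX peak also had a BMAL1 peak. At POLR2I the BMAL1 peak at chr19:36605655-36606116 had 21 fragments (13 to 32.1) and a fold enrichment of 10.64 (6.59 to 16.3), higher than 54.4% of the BMAL1 list. Its summit was 17 bp from the MAX summit, and the single CACGTG shown above lay 22 bp from the BMAL1 and 4 bp from the MAX summit. It was the only CACGTG in either peak, so both summits at POLR2I lay near the same E-box.

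At POLR1G the summits were apart. The BMAL1 peak at chr19:45908973-45909498 had 23 fragments (14.6 to 34.5) and a fold enrichment of 11.66 (7.39 to 17.5), and its summit was 659 bp upstream of the POLR1G TSS, in an intron of PPP1R13L, an inhibitor of p53. It was 650 bp from the MAX summit, inside the same long MAX peak, and 324 bp from a PPP1R13L TSS. A separate CACGTG is shown here because it was the only copy of this hexamer in the BMAL1 peak. It lay 98 bp from the summit of that peak, while its distance to the MAX summit was 748 bp. The printed sequence around it is at chr19:45909131-45909160 on the plus strand.
POLR1G, BMAL1 side: caaatctgtgtcCACGTGccgctgtttaca
Both BMAL1 peaks had CACGTG in the 200 bp at the summit, as did 78.5% of all BMAL1 promoter peaks. The POLR1G peak of BMAL1 also had the variant CACGCG at its summit, which is not shown. The next BMAL1 peak outside the limit was 1560 bp from POLR2L, near TSPAN4, with a fold enrichment of 17.38, and it lay at nearly the same distance as the MAX peak there.

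The factors that work with each polymerase were described from lists by function. Of 7 Pol I factors, 6 had a MAX peak (85.7%, against 36.4% of all genes), all except TAF1B, with a median fold enrichment of 10.1. They include RRN3, which recruits Pol I to the promoter (10.91), and UBTF, which holds ribosomal DNA in an open state (9.99). Of 16 Pol III factors, 11 had a MAX peak (68.8%), with a median of 9.65 and the highest values at GTF3C6 (23.38) and GTF3C4 (23.08), subunits of TFIIIC. BRF2, GTF3C5, SNAPC2, SNAPC3 and SNAPC4 had none. Of 21 factors listed for Pol II, 11 had a MAX peak (52.4%), with a median of 12.3 and the highest value at GTF2A1 (24.84). Besides general initiation factors this list held the elongation factors TCEA1, SUPT4H1 and SUPT5H, and TBP, which also serves Pol I and Pol III. TCEA1, SUPT4H1, SUPT5H and TBP all had a MAX peak. By these lists the shares of the factors spanned less than those of the subunits. How near the Pol II factors lay to the 50.0% of CpG-rich genes depends on which genes are listed.

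BMAL1 was listed at 1 of the 16 Pol III factors and 1 of the 21 Pol II factors, against 1.85% of all genes. The Pol III factor was GTF3A, which binds the 5S ribosomal RNA genes, with a fold enrichment of 15.82, and the Pol II factor GTF2H1, a TFIIH subunit, with 9.77. MAX was present at both, at 9.65 and 13.86. Of the 9 assembly factors 7 had a MAX peak (77.8%, against 36.4% of all genes), without GPN2 and RPAP3, with RPAP2 highest at 16.47. The mitochondrial genes POLRMT, the polymerase of that organelle, TFAM and TFB2M had one at 3 of 3 genes, at 11.19, 7.3 and 21.82.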

How the data were processed

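Cells were MDA-MB-231, with 1 BMAL1, 1 MAX and 1 input library. Per the labels, the authors aligned reads with BWA 0.6.2 and called peaks with MACS2 2.0.9 on hg19. How reads with several matches were treated is not given in the sources used here. The deposited lists give the pileup signal (unscaled, tags of 51 bp extended to 300 bp), the fold enrichment as a ratio over input background, and −log10 p-values and q-values. The cutoff on the p-value is 1e-05 in the deposited headers but 1e-08 in the study's methods, and every peak listed entered the counts. At most 1 tag per position was kept for MAX and 2 for BMAL1, and the lowest pileup listed was 9 for MAX and 12 for BMAL1, so absence of a peak means none was called at this depth.

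Members and lists were chosen with earlier results of these data known, so counts are descriptive. Members are named, with values where a peak was listed, except 1 gene that is in the counts but not reported here by name. TSSs came from GENCODE release 44 on hg19, and POLR2J3 has a pair of gene entries, counted as 1 symbol. Background shares used the 20090 symbols, or the 19812 with a canonical TSS for motifs. Overlap of peaks was 1 bp. Counting was tested on simulated data. Sequences were read with pysam 0.24.0, intervals computed with scipy 1.17.1, tables handled with pandas 2.3.3 and numpy 2.4.6, and plots drawn with matplotlib 3.10.9, all in Python 3.11.15.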

Additional observations from a re-analysis of the deposited data

How the results depend on the processing

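The number of genes with a MAX peak was 15 to 22 over all alternatives, against 21 as reported, while the share of all genes was 23.5% to 41.7%. Moving the limit to 5 kb added POLR2L, using 1 canonical TSS per gene lost POLR2B and POLR2H, a −log10 p-value of at least 8 lost POLR3B (20 genes), and a −log10 p-value of at least 12 lost POLR1D, POLR1F, POLR2A, POLR2K, POLR3A and POLR3B. That threshold left 2 of the 4 bound subunits shared between enzymes. At 300 bp, 1 of 33 genes kept a BMAL1 peak, POLR2I, against 1.36% of all genes. Grouping by symbol gave 5 bound Pol II genes in place of 3, since it counts the shared subunits, of 15 in place of 10. Without POLR2J2 and POLR2J3 the bound genes were 21 of 31 overall and 3 of 8 for Pol II, and without POLR2M too, a choice made after seeing the data, 21 of 30 and 3 of 7. In a window of 100 bp at the summit, 5 MAX peaks held CACGTG in place of 9, and the strong peaks of POLR3G and POLR1B were among those that lost it. The share of all MAX promoter peaks in that window is not given here. Over the alternatives, the bound genes numbered 4 to 7 for Pol I (of 6, or of 8 by symbol), 2 to 5 for Pol II (of 7 to 15) and 7 to 9 of 10 for Pol III, and the median fold enrichment was 11.7 to 15.0. The highest subunit pileup was 56 fragments, so intervals are wide, and they leave out variation between cultures. No paired analysis was possible because each antibody has 1 library.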
